A study of Mus musculus with 32 samples.

Results

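The genes described here are 42 genes of the cell cycle and mitosis, chosen by name, out of 54532 genes in the liver RNA-Seq table. All 42 were found in the table, and they were sorted by role into 7 sets: 5 G1 and G1/S factors, 6 MCM helicase subunits, 5 genes of DNA synthesis and nucleotide supply, 8 G2/M cyclins and regulators, 7 mitotic kinases and checkpoint or passenger proteins, 10 kinetochore, spindle, cytokinesis and chromosome proteins, and the CDK inhibitor *Cdkn1a*. The last 3 sets before *Cdkn1a* are called the 25 G2/M and mitosis genes. The livers came from 32 mice on a C57BL/6 background, 4 in each of 8 groups: WT mice and *Cyp2c70* KO mice of both sexes, each kept on chow or given chow with SC-435, an inhibitor of the ileal bile acid transporter (IBATi). SC-435 made up 0.006% of the diet (about 11 mg/kg/day), its start is labelled as 3 weeks after weaning while the study describes it at weaning, and every mouse was killed at an age of 12 weeks. *Cyp2c70* encodes the rodent liver enzyme that makes muricholic acids. The KO mice descend from a single CRISPR-Cas9 founder that lost exon 2 in all tissues, so the effect of a second line is not covered. Mice were not fasted, the livers were flushed with PBS, and pieces of whole liver were frozen, so every value is an average over all cell types of the liver.

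Cells that enter division pass G1, copy their DNA in S phase and separate the chromosomes in mitosis. D-type and E-type cyclins with their kinases release E2F factors, which switch on the genes of DNA replication. Later the MYB and FOXM1 factors switch on the genes of G2 and mitosis. Most hepatocytes of an adult liver rest outside the cycle and can re-enter it after injury or loss of tissue, and p21, the product of *Cdkn1a*, is a brake on the cyclin-dependent kinases that p53 and other stress signals can induce.

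The promoters of these genes carry sequence elements known from cell cycle control, and 4 are shown because their genes stand for the S phase and the mitotic members in the results below. The sequences are RefSeq promoter windows on GRCm38.p6, from 250 bases before to 50 bases after the start, written 5′ to 3′ on the gene's strand. Capitals mark 3 kinds of letters found on either strand: the CHR element, an E2F-type element and the CCAAT box. The CHR element was searched as TTTGAA and in its second form as TTCGAA. The E2F-type element was searched as TTCGCGC, in a further form as TTGGCGC and in the last form as TTCCCGC. Capital runs longer than 1 element are overlapping matches.
*Cdk1* (chr10:69352863-69353162, minus strand): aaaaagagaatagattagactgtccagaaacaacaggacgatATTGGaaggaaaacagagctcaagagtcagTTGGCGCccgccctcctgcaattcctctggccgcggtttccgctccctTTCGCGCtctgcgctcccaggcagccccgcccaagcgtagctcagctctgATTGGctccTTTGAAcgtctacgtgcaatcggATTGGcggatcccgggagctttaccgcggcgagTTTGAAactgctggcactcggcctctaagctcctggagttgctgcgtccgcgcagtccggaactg
*Plk1* (chr7:122159185-122159484, plus strand): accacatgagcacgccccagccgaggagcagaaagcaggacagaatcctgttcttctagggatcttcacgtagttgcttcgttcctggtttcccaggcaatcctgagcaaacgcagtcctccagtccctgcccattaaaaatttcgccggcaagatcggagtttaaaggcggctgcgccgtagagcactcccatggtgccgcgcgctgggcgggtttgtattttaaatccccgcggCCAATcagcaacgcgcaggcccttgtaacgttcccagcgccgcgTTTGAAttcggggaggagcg
*Mcm5* (chr8:75109259-75109558, plus strand): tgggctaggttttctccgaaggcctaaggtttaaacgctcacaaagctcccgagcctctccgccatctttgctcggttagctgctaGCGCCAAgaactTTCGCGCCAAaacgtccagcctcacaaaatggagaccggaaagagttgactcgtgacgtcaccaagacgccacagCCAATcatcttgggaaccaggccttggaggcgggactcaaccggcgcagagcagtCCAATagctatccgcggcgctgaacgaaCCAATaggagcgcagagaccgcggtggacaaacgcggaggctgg
*Mcm6* (chr1:128359656-128359955, minus strand): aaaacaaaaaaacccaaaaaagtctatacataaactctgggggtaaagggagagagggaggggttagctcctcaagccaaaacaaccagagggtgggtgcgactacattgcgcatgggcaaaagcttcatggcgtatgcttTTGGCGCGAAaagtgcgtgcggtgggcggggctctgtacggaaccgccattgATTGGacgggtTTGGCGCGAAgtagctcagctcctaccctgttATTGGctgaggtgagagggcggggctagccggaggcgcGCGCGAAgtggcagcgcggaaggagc
The *Cdk1* window held 2 CHR, 2 E2F-type and 3 CCAAT matches, and the *Plk1* window held 1 CHR and 1 CCAAT match. The *Mcm5* window held 3 E2F-type and 3 CCAAT matches with no CHR match, and *Mcm6* held 5 E2F-type and 2 CCAAT matches, also without a CHR match.

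The promoter table held 36 windows for 33 of the 42 genes, and *Ccne2*, *Cdc25c*, *Aurkb*, *Ccna2*, *Kif20a*, *Mcm4*, *Ccnd1*, *Tpx2* and *Foxm1* were missing from it. A CHR match was present in 16 of the 20 windows of the G2/M and mitosis genes (80%), in 2 of the 14 windows of the G1/S, MCM and DNA synthesis genes (14.3%) and in 19.2% of all 32851 windows. A CCAAT match was present in 18 of the same 20 windows (90%), against 37.4% of all windows. An E2F-type match was present in 3 of these 20 windows (15%) and in 6 of the 14 windows of the G1/S, MCM and DNA synthesis genes (42.9%), against 8.07% of all. The *Ccnb1* window, which is not shown, held 1 E2F-type and 2 CCAAT matches and no CHR match. Neither of the 2 *Cdkn1a* windows held any of the 3 elements. These counts describe letters in a window and were given no test.

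Each library held between 36476021 and 44771350 counted reads, and levels are CPM, counts scaled to a library of fixed size so that libraries of different depth can be compared. They were taken after TMM scaling, a factor per library that offsets differences in RNA composition, and they are given for replicate 1, 2, 3 and 4 of a group in that order. *Cyp2c70* lay between 271 and 838 CPM in the 16 WT mice and between 109 and 188 CPM in the 16 KO mice, so the groups did not overlap and every library matched its genotype label. Reads from the exons outside the deleted part can still be counted in KO mice. The 8 hepatocyte markers, such as *Alb* and *Ttr*, had reads in every group, and none of the 8 was at 0 in a group.

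There were 3 libraries, all male, that stood apart. Male WT chow replicate 1 had a TMM factor of 0.622 against 0.964 to 1.004 in the other 3 mice of its group, the highest hepatocyte marker sum of all mice, and a mean correlation with its group of 0.918 against 0.962 to 0.964. Male KO chow replicate 4 had a TMM factor of 1.26, the highest of the 32, and the highest marker sums for cholangiocytes, macrophages and stellate cells. Male WT SC-435 replicate 4 differed from the other 3 mice of its group by a chi-square per gene of 275.6 to 320.4, against 25.02 to 32.9 among those 3. Counts of called members and medians of the comparisons that use these mice are given below with and without them. In whole liver, a change in the number of cells of a type and a change in RNA per cell cannot be told apart.

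Levels compared between genes are per kilobase of gene length. *Pcna*, the sliding clamp of DNA polymerase, led in male WT mice on chow at 10.5 CPM per kb, followed by *Tk1* at 6.61 and *Ccnd1* at 4.15. In female WT mice on chow *Ccnd1* led at 16 CPM per kb, ahead of *Pcna* at 10.7 and *Cdkn1a* at 7.83. The lowest levels were those of *Bub1*, a spindle checkpoint kinase, at 0.0476 CPM per kb in female WT mice on chow and of *Cdc25c*, the phosphatase that activates CDK1, at 0.0166 in male WT mice on chow. *Cdc25c* had 0, 1, 0 and 1 reads in the male WT mice on SC-435, and a count of 0 allows up to 3 reads from counting error alone. It was filtered out of all 9 comparisons of 2 groups, while *Bub1* was filtered out of 5 of them and *Ttk* of 4.

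**Figure D1:**
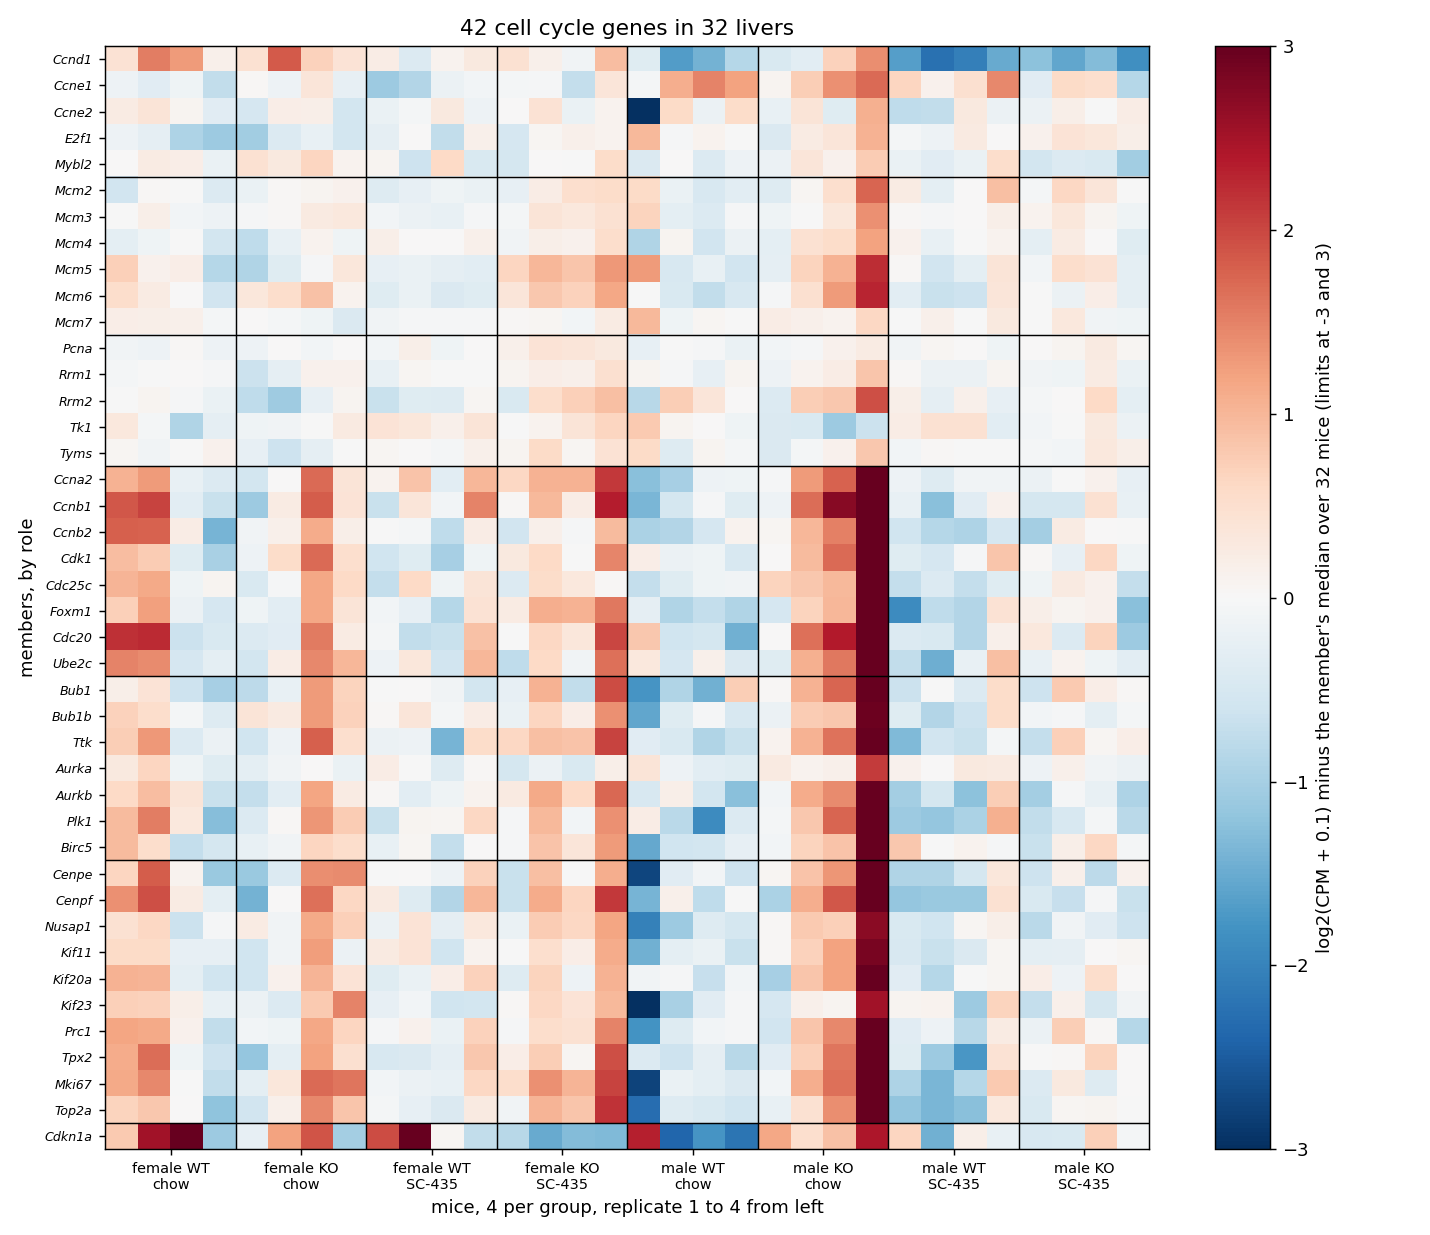
Heat map of the 42 genes (rows, in the order of their roles) in the 32 mice (columns, 4 per group, replicate 1 to 4 from left). Colour is log2(CPM + 0.1) minus the gene's median over all mice, capped at 3 in either direction. The 25 G2/M and mitosis genes are deepest red, the high end of the scale, in the fourth male KO mouse on chow, and *Cdkn1a* in the bottom row follows another order of mice.

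Cyclin D1, the product of *Ccnd1*, couples growth signals to the G1 kinases. In females, *Ccnd1* stood at 52.2, 112.8, 93.4 and 42.99 CPM in WT mice on chow, 53.5, 138.9, 62.9 and 51.4 in KO mice on chow, 45.1, 29.2, 41.6 and 47.5 in WT mice on SC-435 and 53.1, 42.7, 36.1 and 74.1 in KO mice on SC-435. In males, *Ccnd1* stood at 30.2, 12.04, 14.4 and 21.4 CPM in WT mice on chow, 28.1, 30.8, 62.9 and 101.8 in KO mice on chow, 12.3, 8.19, 9.25 and 13.5 in WT mice on SC-435 and 16.4, 13.01, 15.6 and 10.7 in KO mice on SC-435. It was the only member to pass in the comparison of female with male WT mice on chow, higher in females (log2 fold change 1.95, SE 0.39, adjusted p = 0.0485), where 1.49% of all genes passed, and all 4 females lay above all 4 males. Together with *Ccne1* and *E2f1* below, 3 of 39 genes separated the sexes, compared with 11.6% of all genes. The call for *Ccnd1* between the sexes was lost in 8 of 13 alternatives, among them the fits without female replicate 1, 2 or 3 or male replicate 2, 3 or 4. In male KO mice *Ccnd1* fell with SC-435 (log2 fold change -2.01, SE 0.39, adjusted p = 0.0122), with no overlap between the groups, and this call held in all 14 alternatives tried.

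Cyclin E1 and E2F1 act at the entry into S phase. In females, *Ccne1* stood at 0.543, 0.470, 0.558 and 0.332 CPM in WT mice on chow, 0.638, 0.542, 0.827 and 0.509 in KO mice on chow, 0.237, 0.293, 0.531 and 0.582 in WT mice on SC-435 and 0.584, 0.597, 0.335 and 0.818 in KO mice on SC-435. In males, *Ccne1* stood at 0.585, 1.42, 1.91 and 1.56 CPM in WT mice on chow, 0.654, 1.10, 1.75 and 2.22 in KO mice on chow, 1.02, 0.684, 0.896 and 1.85 in WT mice on SC-435 and 0.462, 0.973, 0.924 and 0.297 in KO mice on SC-435. *Ccne1* and *E2f1* were both lower in all 4 female WT mice on chow than in all 4 males, and neither passed the test, at log2 fold changes of -1.54 (adjusted p = 0.136) and -0.89 (adjusted p = 0.342). In females, *E2f1* stood at 3.88, 3.60, 2.23 and 1.99 CPM in WT mice on chow, 2.05, 3.25, 3.69 and 2.94 in KO mice on chow, 3.58, 4.34, 2.54 and 4.79 in WT mice on SC-435 and 3.02, 4.502, 4.797 and 4.64 in KO mice on SC-435. In males, *E2f1* stood at 8.58, 4.21, 4.63 and 4.30 CPM in WT mice on chow, 3.18, 5.11, 5.54 and 8.98 in KO mice on chow, 4.12, 3.89, 5.22 and 4.37 in WT mice on SC-435 and 4.70, 5.81, 5.52 and 4.88 in KO mice on SC-435. Male WT chow replicate 1 and male KO chow replicate 4 held the highest *E2f1* levels of the 32 mice. Of the other G1/S genes, *Ccne2* and the transcription factor gene *Mybl2* had group means between 1.02 and 1.60 CPM and between 0.374 and 0.843 CPM.

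The 6 MCM subunits form the helicase ring that is loaded onto replication origins. In females, *Mcm5* stood at 5.27, 3.50, 3.69 and 1.71 CPM in WT mice on chow, 1.66, 2.46, 3.13 and 4.05 in KO mice on chow, 2.68, 2.78, 2.61 and 2.53 in WT mice on SC-435 and 5.03, 6.48, 5.75 and 7.96 in KO mice on SC-435. In males, *Mcm5* stood at 7.88, 2.24, 2.70 and 2.10 CPM in WT mice on chow, 2.62, 5.11, 6.63 and 15.2 in KO mice on chow, 3.24, 2.10, 2.58 and 4.21 in WT mice on SC-435 and 2.99, 4.62, 4.36 and 2.60 in KO mice on SC-435. In females *Mcm5* was highest in KO mice on SC-435, where each of the 4 mice lay above all WT mice on SC-435 and above all KO mice on chow, while female WT chow replicate 1 reached into that range. In females, *Mcm6* stood at 8.74, 7.28, 6.12 and 4.08 CPM in WT mice on chow, 7.72, 8.85, 11.3 and 6.55 in KO mice on chow, 4.72, 5.32, 4.49 and 4.68 in WT mice on SC-435 and 7.83, 10.7, 9.83 and 13.7 in KO mice on SC-435. In males, *Mcm6* stood at 6.04, 4.41, 3.62 and 4.36 CPM in WT mice on chow, 5.98, 8.52, 15 and 30.2 in KO mice on chow, 4.88, 3.78, 3.93 and 7.83 in WT mice on SC-435 and 6.04, 5.37, 6.999 and 4.91 in KO mice on SC-435. *Mcm6* in KO females on SC-435 also lay above every WT female on SC-435, but overlapped with KO females on chow. In females, *Mcm2* stood at 3.08, 4.82, 4.61 and 3.47 CPM in WT mice on chow, 4.06, 4.74, 4.92 and 5.07 in KO mice on chow, 3.54, 3.90, 4.28 and 4.07 in WT mice on SC-435 and 3.90, 5.49, 6.68 and 6.87 in KO mice on SC-435. In males, *Mcm2* stood at 7.02, 4.05, 3.32 and 3.71 CPM in WT mice on chow, 3.54, 4.83, 6.69 and 15.9 in KO mice on chow, 5.55, 3.80, 4.72 and 8.85 in WT mice on SC-435 and 4.45, 7.25, 5.995 and 4.61 in KO mice on SC-435. *Mcm2* overlapped between the groups of every comparison of 2 groups. *Mcm3*, *Mcm4* and *Mcm7* had group means between 4.96 and 7.84, 4.18 and 7.97, and 13.4 and 18.2 CPM.

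The DNA synthesis set held the clamp *Pcna*, the ribonucleotide reductase subunits *Rrm1* and *Rrm2*, and the nucleotide enzymes *Tk1* and *Tyms*. In females, *Pcna* stood at 25.4, 24.6, 28.04 and 24.4 CPM in WT mice on chow, 24.4, 27.4, 25.9 and 27.3 in KO mice on chow, 25.9, 30.7, 25.1 and 27.3 in WT mice on SC-435 and 30.4, 36.1, 35.1 and 33.5 in KO mice on SC-435. In males, *Pcna* stood at 23.1, 27.2, 26.7 and 23.6 CPM in WT mice on chow, 25.8, 26.5, 30.01 and 32.3 in KO mice on chow, 25.2, 28.3, 27.4 and 24.9 in WT mice on SC-435 and 27.3, 28.8, 33.2 and 28.3 in KO mice on SC-435. *Pcna* varied little: its group means ran from 25.2 ± 2.09 CPM (SD, n = 4) in male WT mice on chow to 33.8 ± 2.497 CPM (SD, n = 4) in female KO mice on SC-435. In females, *Rrm2* stood at 4.71, 5.03, 4.66 and 4.15 CPM in WT mice on chow, 2.75, 2.21, 4.01 and 5.05 in KO mice on chow, 2.94, 3.68, 3.62 and 4.92 in WT mice on SC-435 and 3.44, 6.94, 7.84 and 9.05 in KO mice on SC-435. In males, *Rrm2* stood at 2.65, 8.02, 6.12 and 4.82 CPM in WT mice on chow, 3.56, 8.06, 8.43 and 18.5 in KO mice on chow, 5.43, 3.96, 5.30 and 4.02 in WT mice on SC-435 and 4.55, 4.84, 7.24 and 3.89 in KO mice on SC-435. Female KO replicate 1 on SC-435 was below 3 of the 4 WT females on SC-435, and *Rrm2* overlapped between the groups of every comparison. In females, *Tk1* stood at 36.5, 28.1, 15.7 and 24.1 CPM in WT mice on chow, 26.7, 27.3, 29.3 and 35.6 in KO mice on chow, 39.1, 37.4, 32.8 and 38.5 in WT mice on SC-435 and 28.9, 31.7, 38.3 and 45.8 in KO mice on SC-435. In males, *Tk1* stood at 50.2, 30.9, 29.4 and 26.9 CPM in WT mice on chow, 21.8, 21.5, 13.7 and 18.8 in KO mice on chow, 34.1, 40.4, 40.4 and 23.6 in WT mice on SC-435 and 27.8, 29.3, 35.8 and 25.8 in KO mice on SC-435. *Tk1*, which makes thymidine monophosphate, was lowest in male KO mice on chow, below all male WT mice on chow and below all male KO mice on SC-435. Male KO chow replicate 4, the highest of all mice for 37 of the 42 genes, was the second lowest of the 4 for *Tk1*.

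The G2/M set holds the cyclins that drive mitosis, their kinase CDK1, the factor FOXM1, *Cdc20*, an activator of the anaphase-promoting complex, and *Ube2c*, a ubiquitin-conjugating enzyme of that complex. In females, *Ccnb1* stood at 1.58, 1.76, 0.267 and 0.190 CPM in WT mice on chow, 0.116, 0.445, 1.51 and 0.509 in KO mice on chow, 0.190, 0.488, 0.338 and 1.19 in WT mice on SC-435 and 0.374, 0.804, 0.439 and 2.27 in KO mice on SC-435. In males, *Ccnb1* stood at 0.0780, 0.219, 0.347 and 0.259 CPM in WT mice on chow, 0.316, 1.38, 2.96 and 22.9 in KO mice on chow, 0.292, 0.0944, 0.264 and 0.402 in WT mice on SC-435 and 0.219, 0.219, 0.528 and 0.297 in KO mice on SC-435. *Ccnb1*, the gene of cyclin B1, had the widest spread in male KO mice on chow, where 1 mouse stood at 22.9 CPM and no other mouse of the study passed 2.96 CPM. In females, *Ccna2* stood at 2.12, 2.54, 0.825 and 0.712 CPM in WT mice on chow, 0.638, 0.988, 3.41 and 1.31 in KO mice on chow, 1.07, 1.85, 0.773 and 2.06 in WT mice on SC-435 and 1.57, 2.11, 2.14 and 4.61 in KO mice on SC-435. In males, *Ccna2* stood at 0.351, 0.438, 0.867 and 0.881 CPM in WT mice on chow, 0.948, 2.51, 3.59 and 18.4 in KO mice on chow, 0.876, 0.732, 0.896 and 0.911 in WT mice on SC-435 and 0.852, 0.973, 1.08 and 0.818 in KO mice on SC-435. All 4 male KO mice on chow lay above the 4 male WT mice on chow for *Ccna2*, with replicate 1 close to the highest WT mouse. In females, *Cdk1* stood at 2.64, 2.37, 1.02 and 0.641 CPM in WT mice on chow, 1.199, 2.01, 4.60 and 1.94 in KO mice on chow, 0.854, 1.02, 0.628 and 1.23 in WT mice on SC-435 and 1.68, 2.09, 1.34 and 3.91 in KO mice on SC-435. In males, *Cdk1* stood at 1.56, 1.18, 1.21 and 0.933 CPM in WT mice on chow, 1.35, 2.69, 4.58 and 18.3 in KO mice on chow, 1.02, 0.920, 1.32 and 2.47 in WT mice on SC-435 and 1.39, 1.12, 2.14 and 1.21 in KO mice on SC-435. For *Cdk1*, the lowest KO female on SC-435 lay above the highest WT female on SC-435.

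Aurora B, the kinase of the chromosomal passenger complex, is the product of *Aurkb*. In females, *Aurkb* stood at 1.11, 1.41, 0.947 and 0.404 CPM in WT mice on chow, 0.387, 0.542, 1.71 and 0.849 in KO mice on chow, 0.712, 0.536, 0.628 and 0.761 in WT mice on SC-435 and 0.865, 1.65, 1.11 and 2.52 in KO mice on SC-435. In males, *Aurkb* stood at 0.468, 0.793, 0.446 and 0.233 CPM in WT mice on chow, 0.654, 1.64, 2.04 and 6.48 in KO mice on chow, 0.292, 0.448, 0.237 and 1.23 in WT mice on SC-435 and 0.292, 0.681, 0.581 and 0.322 in KO mice on SC-435. *Aurkb* in KO females on SC-435 lay above all WT females on SC-435, and in male KO mice on chow 3 of the 4 mice lay above all WT mice. In this set the checkpoint genes *Bub1* and *Ttk* had group means from 0.143 to 1.67 CPM and from 0.117 to 1.59 CPM, and *Aurka*, the gene of the spindle pole kinase Aurora A, from 2.98 to 6.79 CPM.

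Ki-67, the product of *Mki67*, coats mitotic chromosomes, and topoisomerase II alpha, the product of *Top2a*, untangles them. In females, *Mki67* stood at 6.13, 7.57, 2.72 and 1.59 CPM in WT mice on chow, 2.21, 3.47, 9.12 and 8.56 in KO mice on chow, 2.59, 2.41, 2.32 and 4.23 in WT mice on SC-435 and 3.997, 7.24, 5.65 and 11.5 in KO mice on SC-435. In males, *Mki67* stood at 0.312, 2.35, 2.23 and 1.996 CPM in WT mice on chow, 2.59, 5.89, 8.81 and 50.9 in KO mice on chow, 1.40, 0.991, 1.48 and 4.798 in WT mice on SC-435 and 2.04, 3.35, 2.06 and 2.75 in KO mice on SC-435. *Mki67* was above every male WT mouse on chow in each male KO mouse on chow, and replicate 4 was 8.63-fold above the median of the other 3. In females, *Top2a* stood at 4.29, 4.70, 2.67 and 1.09 CPM in WT mice on chow, 1.76, 2.98, 7.38 and 4.78 in KO mice on chow, 2.54, 2.24, 1.96 and 3.20 in WT mice on SC-435 and 2.46, 5.49, 4.85 and 12.2 in KO mice on SC-435. In males, *Top2a* stood at 0.468, 1.997, 1.91 and 1.74 CPM in WT mice on chow, 2.26, 3.66, 7.20 and 32.5 in KO mice on chow, 1.11, 0.968, 1.05 and 3.35 in WT mice on SC-435 and 1.92, 2.80, 2.83 and 2.65 in KO mice on SC-435. *Top2a* followed *Mki67* closely enough that the same mouse was highest for both in 7 of the 8 groups.

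The CDK inhibitor gene *Cdkn1a* ordered the mice in its own way. In females, *Cdkn1a* stood at 11.9, 39.9, 56.3 and 3.16 CPM in WT mice on chow, 5.80, 15.9, 25.7 and 3.35 in KO mice on chow, 27.1, 78.3, 7.13 and 4.07 in WT mice on SC-435 and 3.83, 2.34, 2.73 and 2.68 in KO mice on SC-435. In males, *Cdkn1a* stood at 35.1, 1.23, 1.93 and 1.43 CPM in WT mice on chow, 15.3, 9.79, 12.7 and 37.4 in KO mice on chow, 10.7, 2.48, 7.70 and 5.90 in WT mice on SC-435 and 4.87, 4.94, 11.3 and 6.59 in KO mice on SC-435. In female WT mice *Cdkn1a* spanned a 19.2-fold range on SC-435 and a 17.8-fold range on chow, whereas the 4 KO females on SC-435 lay within 1.64-fold of each other, and the only other females in their range were replicate 4 of both groups on chow. In KO females and KO males on chow, the mouse with the highest *Cdkn1a* also led the most of the 25 G2/M and mitosis genes. In male WT mice on chow that mouse tied with another at 7 genes and was lowest for 15. Elsewhere a different mouse led. The mouse with the highest *Cdkn1a* led 0 genes against 17 in WT females on chow and 7 against 17 in WT females on SC-435. On SC-435 it led 0 against 24 in KO females, 1 against 23 in WT males and 10 against 13 in KO males.

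**Figure D2:**
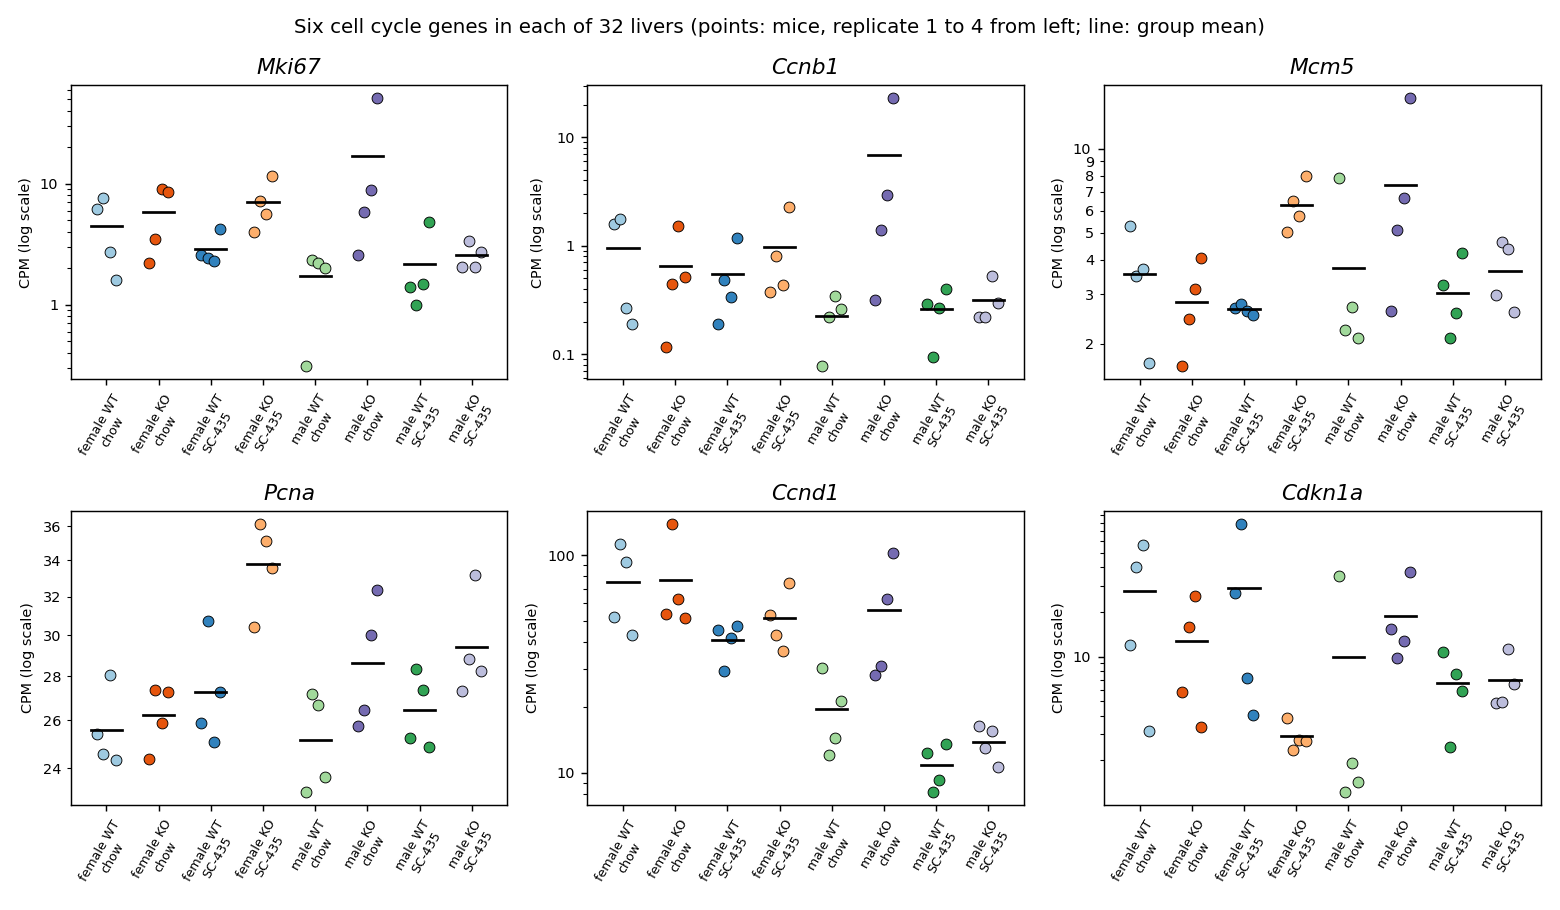
Levels of *Mki67*, *Ccnb1*, *Mcm5*, *Pcna*, *Ccnd1* and *Cdkn1a* in CPM on a log axis for the 8 groups. Each point is a mouse, replicate 1 to 4 from left, and the line is the mean of 4 mice. Male KO chow replicate 4 is the top point for *Mki67* at 50.9 CPM, for *Ccnb1* at 22.9 CPM and for *Mcm5* at 15.2 CPM. KO females on SC-435 have the lowest mean *Cdkn1a* and the highest mean *Pcna*.

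The mitotic genes varied together from mouse to mouse inside a group. Summed over the 25 G2/M and mitosis genes, the level was 56.05, 63.7, 24.8 and 17.6 CPM in WT females on chow, 20.98, 27.8, 68.6 and 45.3 in KO females on chow, 25.96, 27.7, 20.3 and 37.6 in WT females on SC-435 and 27, 48.4, 37.2 and 84.8 in KO females on SC-435. In males it was 16.02, 20.1, 20.8 and 19.99 CPM in WT mice on chow, 25.1, 50.3, 73.8 and 415 in KO mice on chow, 20.1, 17.1, 19.4 and 36.7 in WT mice on SC-435 and 21.9, 28.7, 28.9 and 23.3 in KO mice on SC-435. In 4 groups 1 mouse held the maximum for nearly all 25 genes: male KO chow replicate 4 for 25, female KO SC-435 replicate 4 for 24, female KO chow replicate 3 for 23 and male WT SC-435 replicate 4 for 23. Among male WT mice on chow no mouse held more than 7, and replicate 1 held the minimum for 15.

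The sums of the earlier sets spanned narrower ranges in male KO mice on chow. The 6 MCM genes summed to 61.4, 34.2, 32.7 and 34.9 CPM in male WT mice on chow and 38.6, 47.7, 58.9 and 110.8 in male KO mice on chow, and the 5 DNA synthesis genes to 97.7, 82.03, 78.7 and 73.6 and 66.1, 74.4, 72.5 and 101.3 CPM. Male WT chow replicate 1 had the highest MCM sum and the lowest mitosis sum of its group. Its TMM factor of 0.622 makes every CPM of this library higher than scaling by total counts would.

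Male KO chow replicate 4 held the highest level of all 32 mice for 37 of the 42 genes, among them all 25 of G2/M and mitosis. For these 25 it exceeded the next mouse of any group by 2.06-fold (*Kif23*) to 9.22-fold (*Cdc25c*). Against the median of the other 3 male KO mice on chow it was 16.6-fold higher for *Ccnb1*, 14.7-fold for *Plk1*, the polo-like kinase, and 13.9-fold for the spindle factor *Tpx2*. The same ratio was 3.54 for *Mcm6*, 3.30 for *Ccnd1* and 2.94 for *Cdkn1a*, and 0.878 for *Tk1*. Of the 25 genes, 22 ordered the 4 mice of the group alike, with replicate 3 second and replicate 1 lowest.

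**Figure D3:**
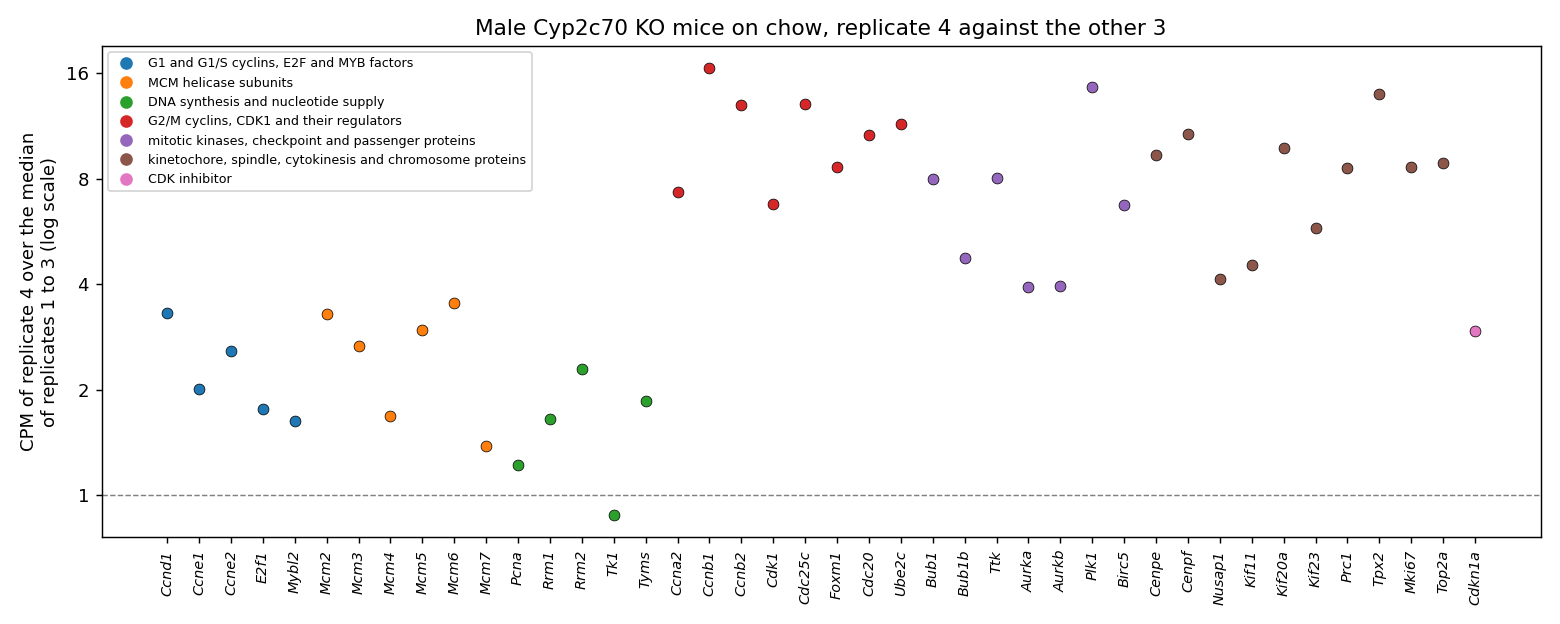
Level of male KO chow replicate 4 divided by the median of replicates 1 to 3 of the same group, for each of the 42 genes, on a log axis. Colour gives the role. The G2/M and mitosis genes lie between 3.94 and 16.6, and *Tk1* at 0.878 is the only gene below 1.

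Markers of other cell types differed between the same male KO mice. The 10 cholangiocyte markers summed to 174, 146.5, 496.9 and 1187 CPM, the 11 macrophage markers to 388.5, 449.2, 589.2 and 1499 CPM and the 9 stellate cell markers to 228.3, 212.5, 414.3 and 709.1 CPM. All 3 lists were highest in replicate 4 and next in replicate 3, with none of their genes at 0 in the group. The 13 erythroid markers summed to 148.9, 145.2, 112.4 and 122.3 CPM, with markers at 0 in all 4 mice that included *Gata1* and *Rhag*, and the 7 B and plasma cell markers to 3.86, 3.11, 2.78 and 4.49 CPM. The part of these cells in the levels of the cell cycle genes was not tested. Male WT SC-435 replicate 4, which held the maximum of its group for 23 of the 25 genes, had a sum of 31.6 CPM over 11 neutrophil and granulocyte precursor markers against 0.870 to 1.34 CPM in the other 3. Most of that sum was *Prtn3* alone, at 26.3 CPM against 0.1845 to 0.6423 CPM in the other 3. The remaining markers of the list were also highest in this mouse within its group, at up to 1.555 CPM (*S100a9*).

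The first question was whether loss of *Cyp2c70* changed these genes on chow. In females none of the 41 genes tested passed an adjusted p under 0.05 with edgeR in either direction, where 14.9% of all genes tested did. At an unadjusted p under 0.05 there was 1, *Mcm7* at a log2 fold change of -0.28 (adjusted p = 0.137), and DESeq2 also called 0. The median log2 fold change was 0.0046 against -0.019 over all genes tested, and no member separated the groups, compared with 20.8% of all genes. In the same comparison 9 of 11 macrophage markers and 7 of 9 tested cholangiocyte markers were higher in KO females and none was lower.

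In males on chow the median log2 fold change of the 41 genes tested was 2.31, against 0.039 over all genes, yet none passed with edgeR, where 1.08% of all genes did. At an unadjusted p under 0.05 there were 26 higher and 1 lower, and 40 of 41 estimates were above 0. The share of all genes at this unadjusted threshold was not taken. The medians were 3.35 for the G2/M set, 2.71 for the mitotic kinases, 2.92 for the kinetochore and spindle set, 0.90 for MCM, 0.39 for G1/S and 0.22 for DNA synthesis. Without male KO chow replicate 4 they were 1.61, 1.58 and 1.53 for the 3 sets of G2/M and mitosis, 0.27 for MCM, -0.018 for G1/S and 0.11 for DNA synthesis. The smallest adjusted p was 0.1001 for *Ttk*, a spindle checkpoint kinase (log2 fold change 3.80), followed by *Ccnb1* at 4.92 (adjusted p = 0.112) and *Ccna2* at 3.35 (adjusted p = 0.120). In 8 genes all 4 KO mice lay above all 4 WT mice (*Ccna2*, *Ttk*, *Birc5*, *Cenpe*, *Nusap1*, *Kif11*, *Mki67* and *Top2a*) and in *Tk1* below, compared with 14.6% of all genes tested in either direction.

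The call in males depended on the test and on single mice. DESeq2 called 24 of the 41 higher and 1 lower, and the edgeR fit over all 4 male groups gave the same counts. The shares of all genes called in these fits are not given here. Without male KO chow replicate 4 the median log2 fold change was 1.12 and 0 were called, and without male WT chow replicate 1 it was 2.24 and 1 was called, *Cdkn1a*, at a log2 fold change of 3.64 in place of 0.9997. The effect of genotype on chow in females minus that in males had a median of -2.06 over 42 genes. With edgeR 0 were called, where 0.0235% of all genes were, and with DESeq2 also 0. At an unadjusted p under 0.05 there were 26 lower and 1 higher, again without a share of all genes. Without male KO chow replicate 4 that median was -1.06, and without male WT chow replicate 1 it was -2.01. Of 9 cholangiocyte markers tested 4 were higher in KO males and none without male KO chow replicate 4, and their sums in male WT mice on chow ran from 26.6 to 36.2 CPM. None of 11 macrophage or 9 stellate cell markers passed, with 11 and 8 estimates above 0 and medians of 0.92 and 0.71. Their part in the result was not tested.

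SC-435 in KO mice was the next comparison, and it shares the KO mice on chow with the genotype comparison. In females 3 of 41 genes were higher and 1 was lower, where 17.8% of all genes passed, 8.56% as higher and 9.23% as lower. The genes that rose were *Mcm5* (log2 fold change 1.17, SE 0.25, adjusted p = 0.0140), *Pcna* (log2 fold change 0.37, SE 0.078, adjusted p = 0.0125) and the thymidylate synthase gene *Tyms* (log2 fold change 0.58, SE 0.17, adjusted p = 0.0366). *Cdkn1a* fell (log2 fold change -2.13, SE 0.54, adjusted p = 0.0242). *Tyms* stood at 5.47, 4.20, 5.40 and 6.38 CPM in KO females on chow and at 6.92, 9.71, 6.73 and 8.73 CPM in those given SC-435. *Mcm5*, *Pcna* and *Tyms* separated the groups completely, compared with 21.9% of all genes in either direction, and *Cdkn1a* did not: KO chow replicate 4 at 3.35 CPM lay below KO SC-435 replicate 1 at 3.83 CPM. *Mcm5* passed in all 14 alternatives, *Pcna* in 13, *Cdkn1a* in 6 and *Tyms* in 5. Scaled by total counts alone, 1 gene was higher and 1 lower.

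The median log2 fold change over these 41 genes was 0.29, and it was -0.035 without female KO SC-435 replicate 4. The number called was 2 instead of 4 without SC-435 replicate 2, 3 or 4 or chow replicate 2. Beside these genes, all 11 macrophage markers, 3 of 9 cholangiocyte markers and 2 of 9 stellate cell markers that were tested fell, and none rose. Macrophage markers summed to between 352 and 549 CPM on SC-435 and between 705 and 1039 CPM on chow. Their part in the result was not tested.

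In male KO mice SC-435 went with lower levels in 39 of 41 genes, of which 9 passed, and 1 gene was higher, where 17.2% of all genes passed, 8.80% as higher and 8.36% as lower. The 9 were *Ccnd1*, *Mybl2*, *Ccna2*, *Ccnb1*, *Cdc20*, *Aurkb*, *Plk1*, *Cenpf* and *Nusap1*. The largest fall was in *Ccnb1* (log2 fold change -4.45, SE 1.21, adjusted p = 0.0365), and *Aurkb* fell with the third smallest adjusted p (log2 fold change -2.53, SE 0.66, adjusted p = 0.0320). *Cdc20*, which activates the anaphase-promoting complex, had 1.01, 3.36, 5.66 and 35.9 CPM on chow and 1.29, 0.730, 1.66 and 0.421 CPM on SC-435, and fell (log2 fold change -3.49, SE 1.02, adjusted p = 0.0448) although the lowest mouse on chow lay below 2 mice on SC-435. *Tk1* rose (log2 fold change 0.65, SE 0.16, adjusted p = 0.0254) with no overlap between the groups. *Ccnd1*, *Mybl2* and *Nusap1* separated the groups in the other direction, and 25.9% of all genes separated them in either direction.

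The number of male calls moved widely. It was 10 with all mice, 28 without KO chow replicate 1, 18 without chow replicate 2, 2 without chow replicate 3 and 7 without chow replicate 4, and it was 1 or 2 without any single mouse on SC-435. The median log2 fold change was -1.85 with all mice and -0.78 without KO chow replicate 4, against -0.029 and -0.020 over all genes. DESeq2 called 23 lower and 1 higher. The counts with a mouse left out and with DESeq2 are given without the share of all genes called in the same fits. Of 9 cholangiocyte markers tested 7 fell, as did 4 of 11 macrophage and 4 of 9 stellate cell markers, and none of these lists had a gene that rose, while 3 of 7 endothelial markers did. Their part in the result was not tested.

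The difference between the sexes in the SC-435 effect in KO mice had a median of 2.06 over 41 genes, females minus males. None passed with edgeR, where 0.211% of all genes did, 30 were higher and 0 lower at an unadjusted p under 0.05, and DESeq2 called 5 higher. The unadjusted and DESeq2 counts have no share of all genes beside them. The smallest adjusted p values were those of *Aurkb*, at a log2 difference of 3.32 (adjusted p = 0.124), and *Mcm5*, at 2.16 (adjusted p = 0.125). Without male KO chow replicate 4 the median was 0.97.

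In WT mice SC-435 left no member past the threshold with edgeR. In females 0 of 39 passed, where 4.28% of all genes did, with 2 higher and 3 lower at an unadjusted p under 0.05, and DESeq2 called 1 lower. Without WT chow replicate 4, 1 was called. The median log2 fold change was -0.35 against -0.0035 over all genes, and 6 of 39 estimates were above 0. *Ccnd1* had the smallest p, at a log2 fold change of -0.89 (adjusted p = 0.123). *Mcm4* was the 1 gene to separate the groups, as higher on SC-435, compared with 13.4% of all genes. In males 0 of 39 passed, where 0.0394% of all genes did, with 1 higher and 1 lower at an unadjusted p under 0.05 and 0 called by DESeq2, and the median was 0.078, which turned to -0.15 without male WT SC-435 replicate 4. Without male WT chow replicate 1, 1 was called and the median was 0.11. The survivin gene *Birc5* was the 1 gene to separate these groups, as higher on SC-435, compared with 7.10% of all genes.

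The comparison of KO with WT mice on SC-435 shares its mice with the treatment comparisons above. In females 8 of 40 genes were higher and 1 was lower, where 10.9% of all genes passed, 6.23% as higher and 4.69% as lower. The 8 came from 5 of the 7 sets: *Mcm5* (log2 fold change 1.25, SE 0.15, adjusted p = 0.00147), *Mcm6* (log2 fold change 1.14, SE 0.16, adjusted p = 0.00276), *Pcna*, *Cdk1*, *Foxm1*, *Aurkb*, *Kif23* and *Mki67* (log2 fold change 1.30, SE 0.31, adjusted p = 0.0272). *Cdkn1a* was lower in KO females (log2 fold change -3.32, SE 0.81, adjusted p = 0.0274), and each KO female lay below each WT female. *Kif23*, a motor of cytokinesis, stood at 0.878, 0.9997, 0.676 and 0.694 CPM in WT and 1.10, 1.70, 1.44 and 2.21 CPM in KO females, without overlap. Of all tested members, 7 separated the groups as higher in KO mice (*Mcm5*, *Mcm6*, *Rrm1*, *Cdk1*, *Ttk*, *Aurkb* and *Kif23*) and *Cdkn1a* as lower, compared with 18.4% of all genes.

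The median log2 fold change of the 40 genes was 0.53 against -0.0043 over all genes, and 37 of 40 estimates were above 0. *Mcm5* and *Mcm6* passed in all 14 alternatives, and the other 7 genes in 5 to 8 of 14. The number called was 2 without KO replicate 2 or 4 or WT replicate 1, 4 without KO replicate 3, 3 without WT replicate 3 and 5 without WT replicate 2. DESeq2 called 14 higher and 1 lower, and the share of all genes that it called is not given here. Of 7 cholangiocyte markers tested all 7 were higher in KO females, with sums of 101.1 to 147 CPM against 32.6 to 39.0 CPM, and 5 of 9 stellate cell markers were higher, while 0 of 11 macrophage markers passed. Their part in the result was not tested.

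In males on SC-435, KO and WT mice did not differ past the threshold in any of 39 genes with edgeR, where 0.0324% of all genes did. There was 1 lower gene at an unadjusted p under 0.05, DESeq2 called 0, and the median was 0.12. Without male WT SC-435 replicate 4 the median was 0.43, 0 were called, and 8 were higher and 1 lower at an unadjusted p under 0.05. *Mybl2* was lower in all 4 KO than in all 4 WT mice (0.525, 0.472, 0.527 and 0.938 CPM in WT and 0.389, 0.438, 0.423 and 0.248 CPM in KO mice), at a log2 fold change of -0.71 (adjusted p = 0.563), compared with 5.35% of all genes that separated the groups in either direction.

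Whether the effect of SC-435 differed between the genotypes was tested as an interaction over the 4 groups of a sex. In females *Mcm5* passed, with a larger increase in KO than in WT mice (log2 fold change 1.58, SE 0.40, adjusted p = 0.0456), and it was 1 of 41 genes tested, where 2.64% of all genes passed. This call held in 6 of 21 alternatives, and the number of genes called was 0 without any single mouse other than WT chow replicate 4 or KO chow replicate 4. *Rrm2* followed at 1.26 (adjusted p = 0.0852), and 38 of 41 estimates were above 0 with a median of 0.56. In males 0 of 41 passed, where 0.0906% of all genes did, with 28 lower at an unadjusted p under 0.05, 4 called lower by DESeq2 and a median of -2.24, which was -0.94 without KO chow replicate 4, -1.84 without WT SC-435 replicate 4 and -2.01 without WT chow replicate 1, where 1 gene was called. Here too the unadjusted and DESeq2 counts have no share of all genes beside them.

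Between female and male WT mice on chow, *Ccnd1* was the 1 gene of 39 that passed, and 8 were higher and 2 lower at an unadjusted p under 0.05. The median log2 fold change, females minus males, was 0.82, with 3 genes called without male WT chow replicate 1 and a median of 0.70, and with all mice the medians were 1.29 for the G2/M set and 1.18 for the kinetochore and spindle set, and 1.48 and 0.87 without male WT chow replicate 1. The mitosis sums above show that female replicates 1 and 2 stood at 56.1 and 63.7 CPM, and replicates 3 and 4 at 24.8 and 17.6 CPM, next to 16.02 to 20.8 CPM in the males.

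**Figure D4:**
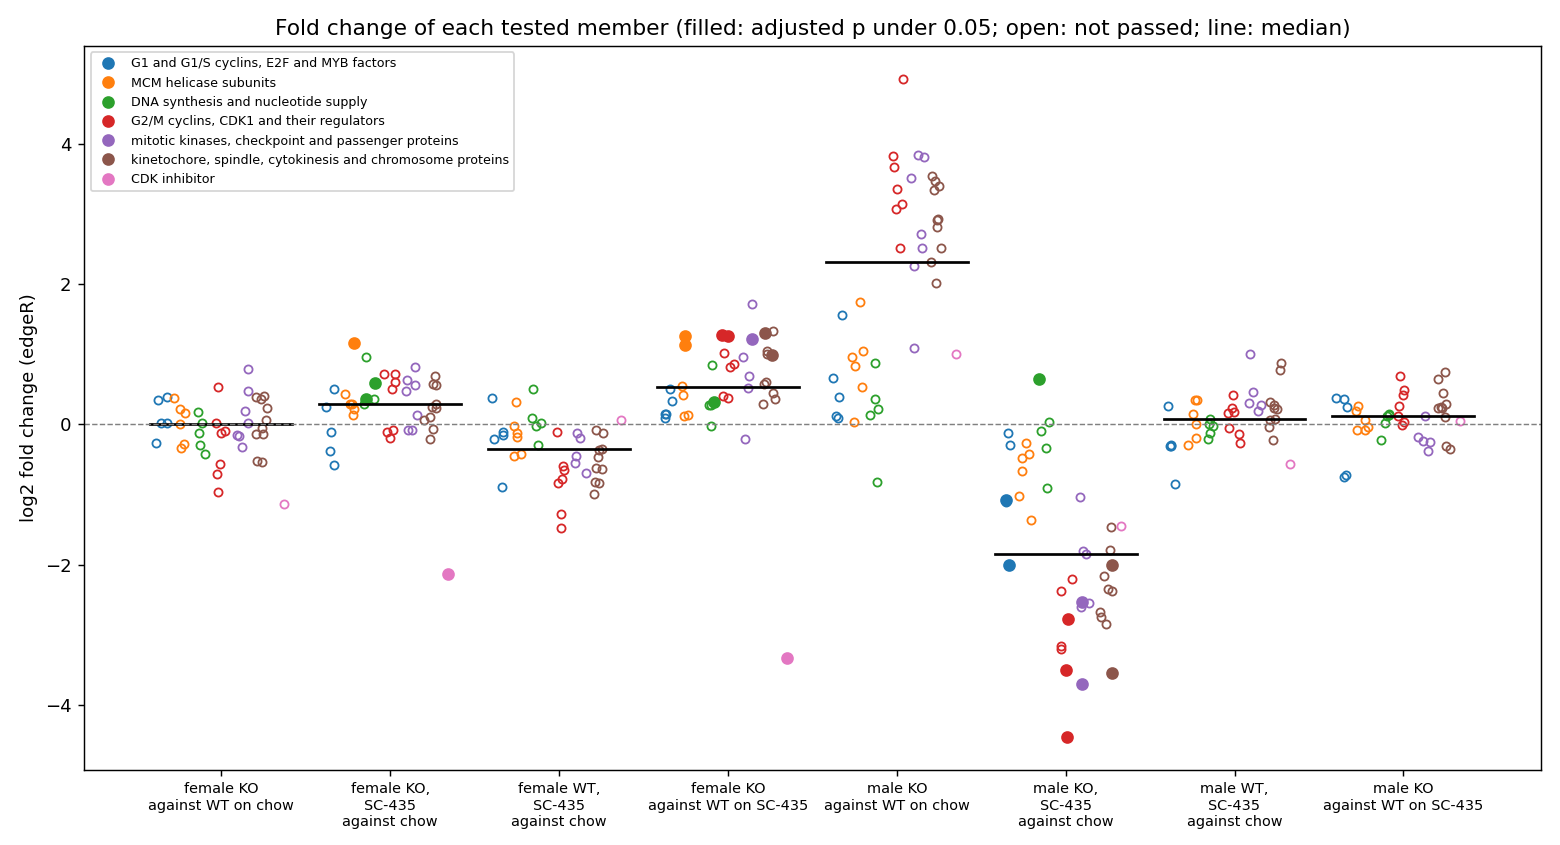
Log2 fold changes (edgeR) of every tested gene in the 8 comparisons within a sex, with colour by role. Filled points passed an adjusted p under 0.05, open points did not, and the line is the median, which runs from -1.85 in male KO mice given SC-435 to 2.31 in male KO against WT mice on chow.

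The wider pathways were described with 4 further lists. Of 34 genes of DNA replication and S phase, 13 of 33 tested were higher and 0 lower in KO against WT females on SC-435, where 6.23% of all genes were higher, led by the DNA ligase gene *Lig1* (log2 fold change 0.75, SE 0.11), *Uhrf1* (1.64, SE 0.28), which maintains DNA methylation at replication, and the checkpoint gene *Clspn* (1.72, SE 0.34). With SC-435 in KO females 8 of 33 were higher and 1 was lower, where 8.56% of all genes were higher and 9.23% lower, led by the origin factor *Mcm10* (1.60, SE 0.30). In male KO mice given SC-435, 1 of 32 was higher and 1 lower, where 8.80% of all genes were higher and 8.36% lower. *Mcm10* was the 1 gene of this list to pass in KO against WT females on chow, where it was lower (-1.12, SE 0.33).

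Of 60 further genes of mitosis and cytokinesis, 8 of 57 tested were higher and 0 lower in KO against WT females on SC-435, where 6.23% of all genes were higher, led by *Cenpm* (0.48, SE 0.10), a centromere protein gene. In KO females given SC-435, 5 of 59 were higher, a share close to the 8.56% of all genes, again led by *Cenpm* (1.81, SE 0.22), which also rose in WT females given SC-435 (1.21, SE 0.25). In male KO mice given SC-435, 4 of 59 fell and 0 rose, a share below the 8.36% of all genes that fell, led by the cohesin acetyltransferase gene *Esco2* (-2.44, SE 0.57), with a median of -1.75. In KO males on chow 0 of 54 passed, where 1.08% of all genes did, and the median was 1.77. Without male KO chow replicate 4 these medians were -0.60, with 4 lower and 2 higher, and 0.61, with 0 called.

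Among 30 G1 cyclins, CDKs, inhibitors and pocket proteins, 6 of 29 tested were higher and 0 lower in KO females on chow, where 14.9% of all genes passed in either direction. They were led by *Cdkn2c* (0.94, SE 0.12), the gene of the CDK4/6 inhibitor p18, and *Rbl1* (0.97, SE 0.15), the gene of the pocket protein p107. *Rbl1* fell with SC-435 in KO females (-0.80, SE 0.19), WT females (-0.56, SE 0.13) and KO males (-1.40, SE 0.40). *Ccnd3*, the gene of cyclin D3, rose with SC-435 in KO females (0.43, SE 0.088), WT females (0.40, SE 0.065) and KO males (0.42, SE 0.11).

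Of 30 p53 target genes, which share the p53 pathway with *Cdkn1a*, 5 of 30 were higher in KO females on chow. Of all genes 14.9% passed in either direction, and the share that was higher is not given here. In KO males on chow it was 2 of 29, where 1.08% of all genes passed, 1 without KO chow replicate 4 and 5 without WT chow replicate 1. With SC-435, 6 of 30 fell and 1 rose in KO females, where 9.23% of all genes fell, led by *Gadd45g* (-2.10, SE 0.41), and 10 of 30 fell and 3 rose in KO males, led by *Btg2* (-1.35, SE 0.26) and *Ddit4l* (-1.76, SE 0.35), where 8.36% of all genes fell. Without male KO chow replicate 4, 6 fell and 3 rose. In KO against WT females on SC-435, 3 of 30 were lower and 2 higher, where 4.69% of all genes were lower and 6.23% higher, and *Ddit4l* was higher (1.46, SE 0.24). *Btg2*, an antiproliferative gene, is in both the G1 list and the p53 list. *Gtse1* and *Ckap2* are in both the list of mitosis and cytokinesis and the p53 list, so these lists are not separate sets of genes.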

How the data were processed

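Liver RNA-Seq was measured in 32 mice, 4 per group, each library from 1 mouse. The authors deposited raw read counts per gene, with FPKM columns (not used here) and gene length (another column, used for levels per kilobase). The submitters' processing notes name HISAT2 2.0.5, featureCounts 1.5.0-p3, DESeq2 1.20.0, GATK 4.1.1.0 and the build mm10. Strandedness of the counting is not given in the sources used here, so reads of overlapping antisense genes could not be separated. A further 35 columns held the authors' own fold changes and p-values for 7 comparisons and were not used.

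Group came from the labels. Levels are CPM with TMM factors from 17530 genes over all libraries. Each of 9 comparisons of 2 groups was fitted with edgeR 4.0.16 (R 4.3.3, limma 3.58.1) by the quasi-likelihood test on the deposited counts of these groups after filterByExpr, with Benjamini-Hochberg adjustment over all genes tested and a threshold of 0.05. The 4 difference tests were interaction terms over 4 groups. Log2 fold changes are given with their standard error (SE). Alternatives were median-of-ratios or total count scaling, no filter, DESeq2 1.42.0, an added limit of 1 on the log2 fold change, a replicate block, 4 groups in 1 fit, and each mouse left out. Numbers called under an alternative, and numbers at an unadjusted p, are given without the share of all genes that passed the same rule. The fits were tested on simulated data. No pair of libraries agreed within sampling noise. Motifs were searched in the RefSeq promoter table (GRCm38.p6) with Python 3.11.15, and figures were drawn with matplotlib 3.10.9.

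Values per mouse are given for 12 core members (*Mki67*, *Top2a*, *Ccna2*, *Ccnb1*, *Cdk1*, *Ccnd1*, *Ccne1*, *E2f1*, *Mcm2*, *Pcna*, *Rrm2* and *Cdkn1a*) and for the 3 members with the smallest adjusted p among those called in each comparison. Values of *Cdc20*, *Kif23*, *Mybl2* and *Tyms* were added after they were seen. From each further list up to 3 genes with the smallest adjusted p could be named. Members and lists were chosen with earlier results of these data known.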

Additional observations from a re-analysis of the deposited data

Results flagged for a closer look

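In groups of 4 mice, the gap between an extreme mouse and its nearest neighbour was divided by the range of the group, for 16 genes in 8 groups. Of the 128 groups checked 14 passed the 95% critical value of Dixon's test, where chance alone would give about 6.4 if levels were normally distributed. The test was run on CPM without a log scale, which need not be normally distributed, so 6.4 is only a rough guide. The checks were also not independent, because the 16 genes were measured in the same mice and many vary together. The number by chance can therefore lie further from 6.4 than with independent checks.

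Male KO chow replicate 4 was set apart as the highest mouse for *Mki67* (0.871 of the range, 50.9 CPM against 2.59 to 8.81), *Top2a* (0.837), *Ccna2* (0.849) and *Ccnb1* (0.883). Male WT chow replicate 1, the library with the lowest TMM factor, was set apart as the highest for *Cdkn1a* (0.979, 35.1 CPM against 1.23 to 1.93), *E2f1* (0.904), *Mcm5* (0.896) and *Tk1* (0.830), and as the lowest for *Top2a* (0.830). Male WT SC-435 replicate 4 was set apart as the highest for *Mki67* (0.873) and *Top2a* (0.941).

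Among females, WT SC-435 replicate 4 was the highest for *Mki67* (0.860), KO chow replicate 2 was the highest for *Ccnd1* (0.868, 139 CPM against 51.4 to 62.9) and KO SC-435 replicate 1 was the lowest for *E2f1* (0.834, 3.02 CPM against 4.502 to 4.797). The effect of SC-435 on *Mcm5* differed between KO and WT females by 1.58 on the log2 scale in the interaction test.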

How the results depend on the processing

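No called gene changed sign, but 3 medians over the genes tested did. That of KO females given SC-435 turned from 0.29 to -0.035 without KO SC-435 replicate 4, that of WT males given SC-435 from 0.078 to -0.15 without SC-435 replicate 4, and that of KO against WT females on chow, 0.0046 with all mice, ran from -0.28 to 0.18 with each mouse left out and was -0.020 without a filter and -0.039 with the replicate block. With DESeq2 the number called was 1 in WT females given SC-435, 15 in KO against WT females on SC-435, 25 in KO against WT males on chow, 24 in KO males given SC-435, 2 between the sexes, 2 for the female interaction, 4 for the male interaction and 5 for the sex difference of the SC-435 effect. With the 4 groups of a sex in 1 fit it was 3 in KO against WT females on SC-435 and 25 in KO against WT males on chow. By total counts it was 2 in KO females and 16 in KO males given SC-435, without a filter 18 in KO males given SC-435, and with a further limit on the fold change 2 in KO females given SC-435. Median-of-ratios scaling left 0 between the sexes. Total counts moved the median of all genes by over 0.1 in several comparisons, for example from 0.039 to 0.29 in KO against WT males on chow and from -0.029 to -0.23 in KO males given SC-435.

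With the replicate block the number called was 1 in KO against WT females on chow, 1 in KO males given SC-435, 0 between the sexes and 0 for the female interaction. Pairing of the mice by replicate number was not evident, as 4 of 32 same-numbered pairs correlated above 0.1 in their deviations from the group means. In KO against WT males on chow the same number was the best match for replicates 1, 3 and 4 but not for replicate 2. Such a cut cannot show that no pairing existed.

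With each mouse left out in turn, the number called ran from 2 to 5 in KO females given SC-435, 0 to 1 in WT females given SC-435, 2 to 12 in KO against WT females on SC-435, 0 to 1 in KO against WT males on chow, 1 to 28 in KO males given SC-435, 0 to 1 in WT males given SC-435, 0 to 3 between the sexes, 0 to 3 for the female interaction and 0 to 1 for the male interaction. It stayed at 0 in KO against WT females on chow, in KO against WT males on SC-435, for the sex difference of the genotype effect and for that of the SC-435 effect. The cause of these shifts was not tested. With 4 mice a group and a spread as wide as that of the mitotic genes in KO males on chow, only large differences can pass, and levels under 1 CPM rest on few reads.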
